A study of Mus musculus with 10 samples.

Results

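C1 and A are cells of the left atrial appendage of the mouse, the small ear-shaped sac on the left atrium, and both were sorted as c-kit+ and CD45-. c-kit, the product of Kit, is the receptor for stem cell factor, and CD45, the product of Ptprc, is a phosphatase on the surface of white blood cells. The comparison sets the 2 RNA-seq libraries of C1 against the 2 of A, chosen by their sample labels, which is 4 of the 10 libraries of the series. All animals were C57BL/6 mice of 8 to 12 weeks. A cells were primary cells from appendage explants that had been digested in 3 steps of 5 min with 0.25% trypsin and 0.1% collagenase D. C1 cells were B-type cells grown to passage 6. B-type cells grew from explants digested with 0.05% trypsin and 0.1% collagenase D, and at their own sort they were c-kit+ and CD45+. The source label is tissue culture for A and cell culture for C1. By the design text, cells of 1 of the digestions changed into other cell types in culture, and the comparison places such a culture beside primary cells of the same gate. Digestion strength, passage and descent from CD45+ cells all differ between C1 and A and cannot be told apart. Nothing in the labels says that paired libraries are from different mice or cultures. The p-values then reflect only how far libraries of the same type scatter, which may be technical scatter. This scatter was pooled over all 10 libraries and not taken from C1 and A alone.

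As background, cells of the heart that carry c-kit and lack CD45 have been studied as candidate progenitors. Outside the muscle cells, CD45- cells of the heart are mainly fibroblasts, which make collagen and other matrix, pericytes and smooth muscle cells of vessel walls, endothelial cells that line vessels, and mesothelial cells of the outer surface. CD45+ cells of the heart are largely macrophages. Dividing cells express genes of DNA replication and mitosis, and cells short of oxygen express genes of glycolysis and of the hypoxia response.

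The deposited values are log2 expression values from which each gene's median over the 10 libraries has been removed. A value is therefore given below as a log2 level relative to that median, and a difference as C1 minus A on the log2 scale with its standard error (SE). For 1195 of the 14253 tested genes the lowest value is shared by at least 2 libraries and marks a floor of 1 normalized read, and for these the level is given in normalized reads. The depth behind the values is known only in relative terms. 1 read was worth 1.68 and 1.92 normalized reads in the A libraries and 1.01 and 0.668 in C1. These values were inferred from the spacing of low values. On this scale C1 was the more deeply sequenced, and totals of reads were not used. A count of 0 allows up to 3 reads, which is 5.75 normalized reads for A and 3.02 for C1, and a fold against a type at or under this limit is given as a lower bound. Each bound sets the mean reads of the higher type against the limit of the other type, so 1 high library can carry it. These limits cover counting error only. In bulk RNA, fewer cells of a type and less RNA per cell cannot be told apart.

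At an adjusted p under 0.05 and a log2 difference of at least 1 (limma, Benjamini-Hochberg), 1433 genes rose in C1, 10.1% of those tested, and 2365 fell, 16.6%. The calls made up 26.6% of the tested genes, and the C1 and A libraries did not overlap for 10077 genes, 70.7%. Each list count below is to be set beside 10.1% for rises and 16.6% for falls. The median difference over all tested genes was -0.04. The split depended on the scaling. Of the calls 37.7% were rises here, against 51.3% under quantile normalization, with 2217 rises and 2105 falls and a median shift of 0.12. Scaling on the median of the genes of known level raised every difference by 2.30, so that 9061 genes rose and 336 fell, 96.4% rises, and falls smaller than 2.30 changed sign. Larger falls could lose their call under it too. This happened to 63 of the genes named here, and the falls among list members went from 371 to 88. That reservation applies to every smaller fall and to every list median above -2.30 given below, captions included. In both C1 libraries the median used for this scaling was the floor of 1 normalized read itself, with a shift of -1.44. In the A libraries the shifts were -0.34 and 2.06, so this scaling cannot settle the size of the differences. The A libraries differed from each other by more than 1 on the log2 scale in 2587 genes, 18.2%, and the C1 libraries in 830, 5.82%. Of the calls, 843 rises and 1617 falls were kept in each of the 4 fits that left out 1 C1 or A library. A count of calls that were kept below always refers to these 4 fits. When the 4 libraries were fitted alone, 857 genes rose and 1518 fell, and 61 of the named genes lost their call.

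The sort genes came first. Kit stood at 3.36 and 72.3 normalized reads in the A libraries and at 35.3 and 66.4 in C1. A replicate 1 lay under the limit for A although it is labelled c-kit+, and the groups overlapped. The difference for Kit was 1.63 (SE 1.32, limma adjusted p = 0.346), and it was -0.58 without A replicate 1 and 3.85 without A replicate 2 (adjusted p = 0.00809). Ptprc stood at 6.72 and 82.1 normalized reads in A and at 1.01 and 1 in C1, at least 14.7-fold lower in C1 (difference -4.55, SE 0.98, adjusted p = 0.00959). The difference for Ptprc was -2.74 without A replicate 2, and the call was lost when the 4 libraries were fitted alone. The 12 tested genes of c-kit signalling held 3 falls, 0 rises and a median of -0.09. Without A replicate 2 there were 2 rises. The falls were Ptpn6, the phosphatase that ends kit signals in blood cells, at -3.73, Socs1, an inhibitor of cytokine signals, at -1.67 and the adaptor gene Sh2b3 at -1.21. Socs1 lost its call without A replicate 2 (-1.47, adjusted p = 0.0762) or either C1 library (adjusted p = 0.0598 and 0.103).

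Genes of the sex chromosomes differed between the libraries. Xist, the RNA that silences the inactive X chromosome, lay at 1.09 and 4.12 in A and at -4.82 and -5.24 in C1 relative to its median (difference -7.64, SE 0.89, adjusted p = 0.000967). The Y-linked Ddx3y, an RNA helicase, stood at 618 and 353 normalized reads in A and at 1344 and 1247 in C1 (difference 1.47, adjusted p = 0.00942), and its call was lost without C1 replicate 1 (adjusted p = 0.0501). Eif2s3y, a translation factor subunit, rose by 1.31 (adjusted p = 0.00451), and Kdm5d and Uty, both histone demethylases, differed by 0.91 each and did not pass the threshold of 1, except Uty without A replicate 1 (1.26, adjusted p = 0.00733). Both A libraries were thus above both C1 libraries for Xist and below them for each of the 4 Y-linked genes. The sex of the animals is not given in the labels used here, and its part in the other differences was not tested. The library kit does not mark strand, so Xist reads cannot be told apart from those of Tsix, its antisense gene.

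The 12 rises with the widest gap between the libraries of the types were led by Slc38a5 (chrX:8271381-8280179, GRCm38.p6), a transporter of glutamine and other amino acids. Slc38a5 stood at 1 normalized read in both A libraries and at 546 and 498 in C1, at least 90.8-fold higher (adjusted p = 0.000177). In B, the parent type of C1, it stood at 4.59 and 1. Vat1l rose by 9.36 (SE 0.46), from -4.38 and -3.44 in A to 5.01 and 5.88 in C1. Saa3, an acute phase serum amyloid A protein, rose by 7.75 (SE 0.47), from -3.44 and -3.46 to 4.74 and 3.87. For each of these the lowest C1 library lay far above the highest A library, which is the rule they were chosen by. Dmrt2, a transcription factor of the embryonic somite, was at 1 in both A libraries and at 138 and 175 in C1, at least 27.2-fold higher. 5 more of the 12 were at 1 in both A libraries. They were Vipr2, a receptor for vasoactive intestinal peptide (80.3 and 59.1 in C1), Opcml, an adhesion protein (57.4 and 68.3), Dpysl5, a protein of neurite growth (67.6 and 53.4), the glucose-responsive factor Mlxipl (47.6 and 79.6) and the ubiquitin ligase March4 (42.3 and 42.0). Their lower bounds ran from 7.33-fold for March4 to 12.1-fold for Vipr2. Ramp1, a subunit of the receptor for calcitonin gene-related peptide, rose by 6.37, the chloride channel gene Ano1 by 6.81 and the FERM domain gene Epb4.1l4a by 6.33. All 12 rises were kept in the fits that left out a library. The choice by gap makes this outcome likely, so it is no added evidence.

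The 12 falls with the widest gap were led by Thy1 (chr9:44043384-44048579), which encodes a surface protein of fibroblasts and other stromal cells. Thy1 stood at 6322 and 5772 normalized reads in A and at 1.01 and 1 in C1, at least 2000-fold lower (difference -12.55, SE 0.22, adjusted p = 1.54e-06). In B it stood at 832 and 866. Ndufa4l2, a hypoxia-induced relative of a respiratory chain subunit, was at 2421 and 2402 in A and at 1.01 and 1 in C1, at least 798-fold lower. 3 of the 12 are structural parts of the matrix. Col15a1, a collagen of basement membranes, fell by 11.60 (SE 0.34), Col6a3, a chain of collagen VI, fell by 10.32 (SE 0.58) and Lama2, a chain of muscle laminin, fell by 9.20 (SE 0.36). Grb10, an imprinted adaptor that restrains insulin and IGF signalling, fell by 9.51. The Notch target Heyl was at 372 and 265 in A and at 1 in both C1 libraries, at least 105-fold lower. Mrgprf, an orphan receptor, and Heph, a ferroxidase, were also at 1 in both, at least 141-fold and 85.2-fold lower, and Arhgap6, a GTPase-activating protein, fell by 8.36. Rps4y2, at least 114-fold lower, is a copy of a ribosomal protein gene, and its reads may be shared with near-identical copies. All 12 falls were kept in the fits that left out a library, which the choice by gap makes likely here too.

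**Figure D1:**
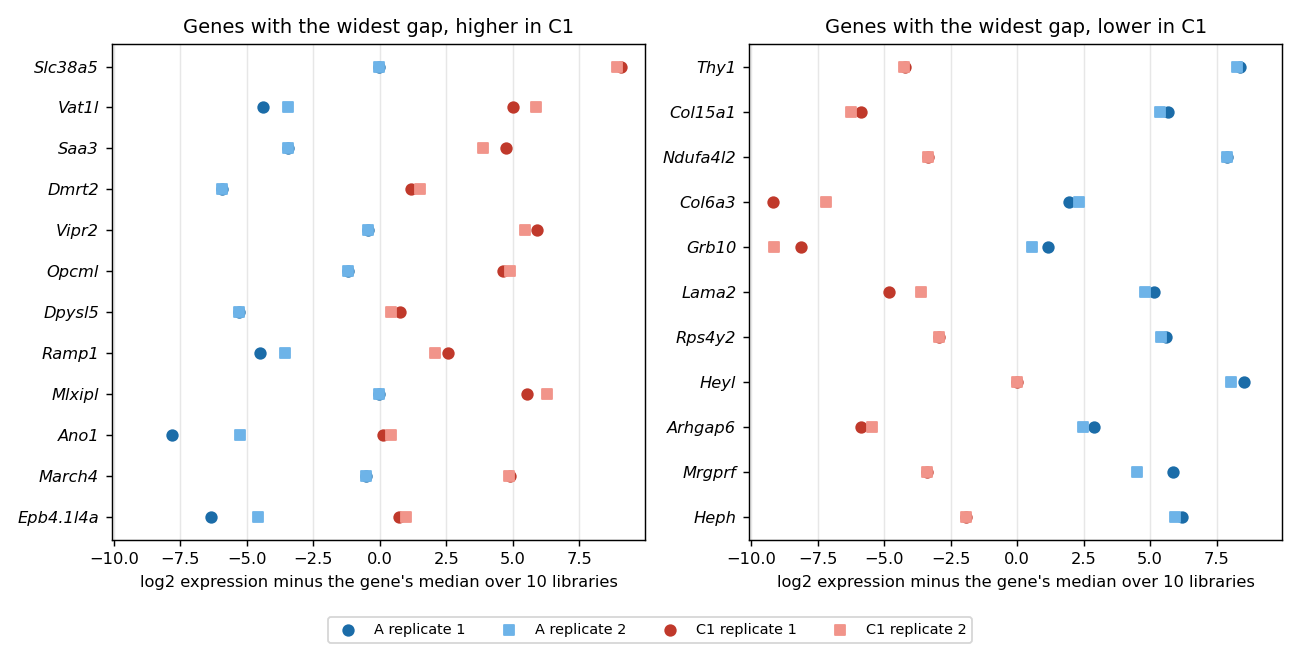
Log2 expression minus the gene's median over 10 libraries (x axis) for the 12 genes with the widest gap upward and 11 of the 12 with the widest gap downward in C1 (y axis), 1 point per library (blue, A; red, C1; circles, replicate 1; squares, replicate 2). In every gene shown the 2 C1 libraries lie on 1 side of the 2 A libraries, from Slc38a5 at the top of the rises to Thy1 at the top of the falls, and the genes were chosen for this gap.

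Of 26 tested surface and transcription factor genes of fibroblasts 12 fell and 2 rose in C1, with a median of -1.30 (-0.84 without A replicate 1 and -0.86 with a floor of 10 normalized reads). The kept calls were 11 falls and 1 rise. Besides Thy1, Pi16, a marker of adventitial fibroblasts, stood at 156 and 46.0 normalized reads in A and at 1 in both C1 libraries, at least 33.5-fold lower. Alcam, an adhesion molecule, fell by 6.55, Ly6a, the mouse stem cell antigen Sca-1, fell by 4.26, Cd248, endosialin, fell by 4.22, and Pdgfra, the PDGF receptor of fibroblasts, fell by 2.63. The 2 rises were Cxcl12, a chemokine, at 2.04 and Mme, a surface peptidase, at 2.45, and the call of Mme was lost without C1 replicate 1 (1.77, adjusted p = 0.0687).

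Of 27 tested collagen chains 16 fell and 0 rose in C1, 10 of these calls were kept, and the median was -1.48. Col8a2, a chain of short collagens, was called higher without A replicate 1, without C1 replicate 2 and under the replicate block, and Col23a1 was called higher under quantile normalization. Col11a1, a fibrillar collagen of cartilage and developing tissue, fell by 7.97 (SE 0.78), from 4.79 and 1.95 in A to -4.60 and -4.61 in C1. Col18a1, of basement membranes, fell by 4.60, Col14a1, which binds collagen fibrils, fell by 4.46, and Col3a1, a fibrillar collagen of soft tissue, fell by 3.81. Col1a1, the main chain of collagen I, changed less and fell by 1.70 (SE 0.24, adjusted p = 0.00198), from 1.05 and 1.38 to -0.48 and -0.50.

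Genes of elastic fibres and collagen crosslinking had 19 falls and 1 rise among 29 tested, 17 falls kept, and a median of -1.55. There were 2 rises without A replicate 1. Eln, elastin, was at 1442 and 230 normalized reads in A and at 3.02 and 1.34 in C1, at least 276-fold lower. Both A libraries lay far above both C1 libraries, a gap for which this gene was named. Ltbp2, of microfibrils, fell by 7.52, Mfap2, a glycoprotein of the same fibrils, fell by 5.20 and Fbn1, fibrillin, fell by 2.75. The rise was Lox, which crosslinks collagen and elastin, at 1.41 (SE 0.15, adjusted p = 0.000746), from 0.07 and -0.24 in A to 1.41 and 1.24 in C1.

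Proteoglycans had 7 falls and 0 rises among 19 tested, led by the collagen-binding Lum, lumican, at -8.98 (SE 1.07) and Vcan, versican, at -3.75. There were 8 falls and 2 rises without A replicate 1 and, without A replicate 2, 8 falls and 1 rise, with medians of -1.01 and -1.13 against -0.67, and 4 fell when the 4 libraries were fitted alone. Matricellular proteins, which modulate contact between cells and matrix, moved both ways, with 11 falls and 4 rises among 20. Tgfbi fell by 5.15, Postn, periostin, fell by 5.01 and Ctgf fell by 2.79. Thbs2, thrombospondin 2, rose by 3.71, Smoc2 by 3.56, Tnxb, a tenascin, by 3.32 (2.17 without A replicate 1) and Wisp1 by 1.62. All 4 of these rises were kept. Among 33 proteases and inhibitors of the matrix 12 fell and 5 rose (8 rises without A replicate 2, and 3 with the 4 libraries alone). The rises were the collagenase gene Mmp13 at 5.29, the cathepsin gene Ctsk at 2.17, Mmp11 at 2.14, Mmp10 at 1.81 and the inhibitor gene Timp2 at 1.49. Mmp13 stood at 3.29 without A replicate 1 and lost its call without C1 replicate 2 (adjusted p = 0.0585). The gelatinase Mmp2 fell by 4.34, the inhibitor family member Serpinf1 fell by 4.11 and the metalloprotease Adam12 fell by 3.40. Of 23 integrins and cadherins 11 fell and 2 rose, though 0 rose when the 4 libraries were fitted alone. The receptor subunit Itga8 stood at 77.2 and 32.6 normalized reads in A and at 1.01 and 1 in C1, at least 18.2-fold lower, and Cdh13 at 147 and 47.8 and at 1 in both, at least 32.3-fold lower. Itga6, of the laminin receptors, fell by 6.21 and Cdh11, the fibroblast cadherin, fell by 4.08. The rises were Cdh3 at 1.52 and Itga3, of another laminin receptor, at 2.03, and Itga3 lost its call without C1 replicate 1 (1.81, adjusted p = 0.0783) and stood at 1.21 without A replicate 1. Transcription factors of mesenchymal cells had 5 falls and 2 rises among 14 (0 rises with the 4 libraries alone), with Prrx2 at -3.75, Sox9 at -3.60 and Foxc2 at -3.28. Snai1, which represses epithelial genes, fell by 1.91 and Tcf4 fell by 1.09, and the rises were Foxf2 at 2.41 and Foxf1 at 1.83. Tcf4 lost its call without A replicate 1 (-0.47), C1 replicate 1 (adjusted p = 0.127) or C1 replicate 2 (adjusted p = 0.158) and stood at -1.70 without A replicate 2. Foxf1 lost its call without A replicate 1 (1.24, adjusted p = 0.0601) or C1 replicate 2 (adjusted p = 0.100), and Foxf2, at 1.40 without A replicate 1, lost it without C1 replicate 1 (adjusted p = 0.0759) or C1 replicate 2 (adjusted p = 0.0539).

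**Figure D2:**
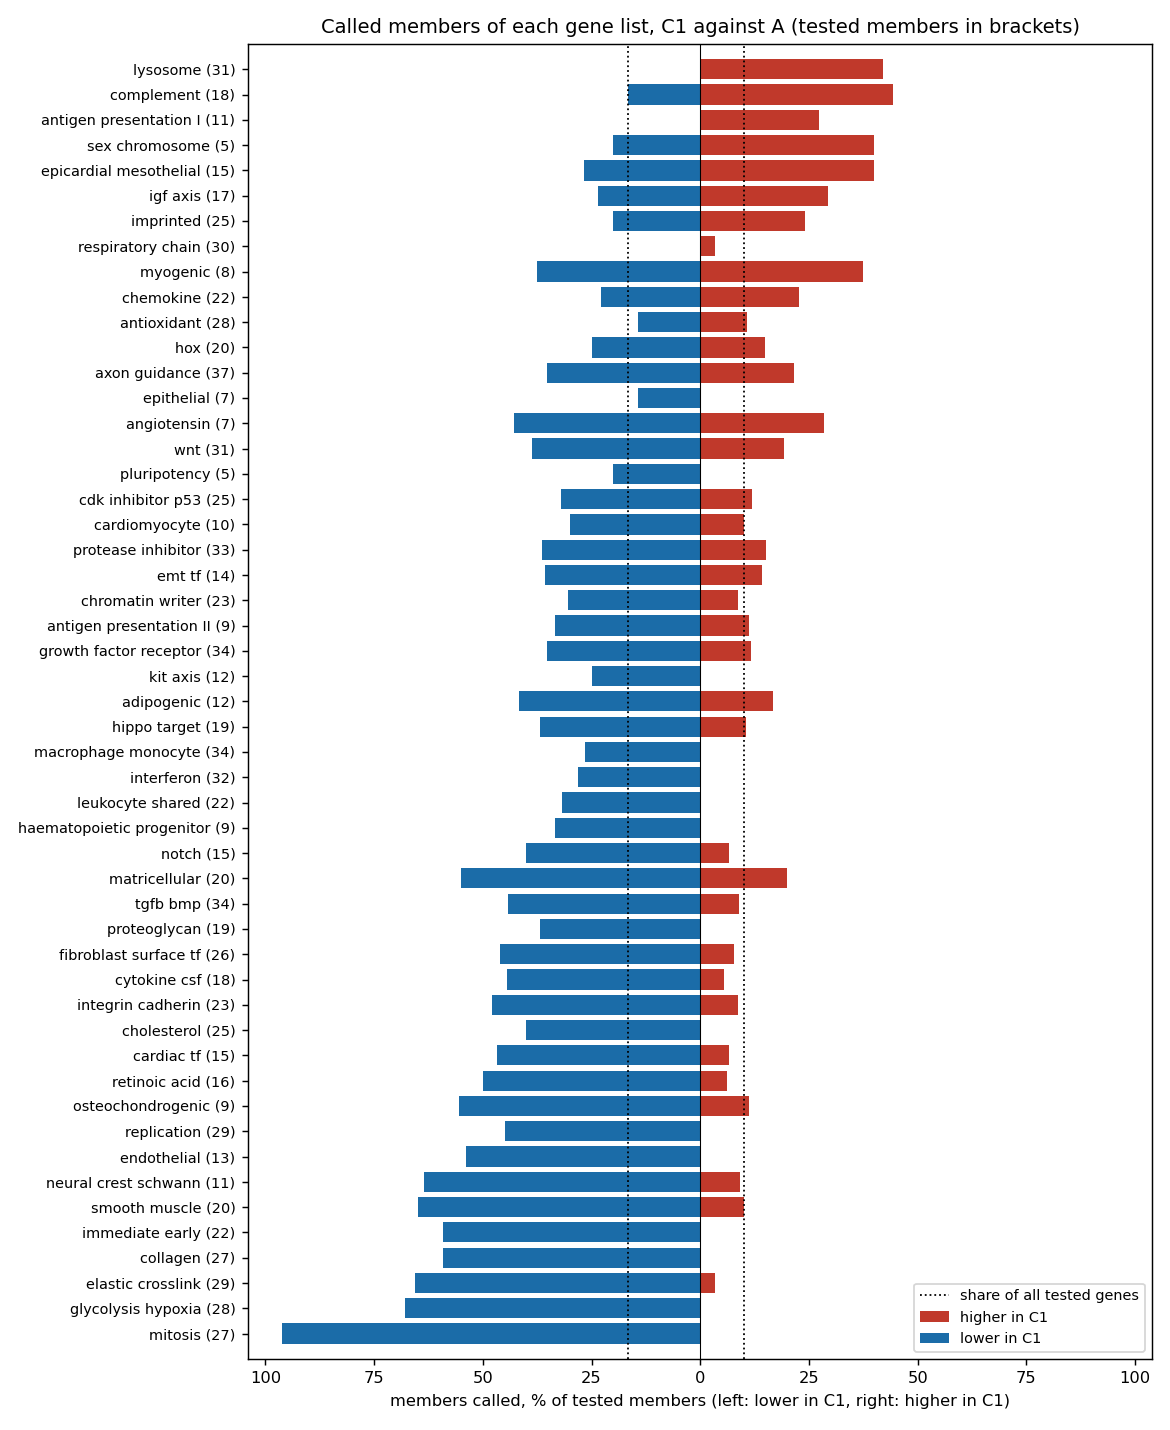
Share of the tested members of each gene list that were called lower (left, blue) or higher (right, red) in C1 than in A, in % (x axis), for every list with at least 5 tested members (number in brackets). Dotted lines mark 10.1% and 16.6%, the shares of all tested genes, mitosis genes reach furthest to the left with 26 of 27, and the lists were chosen with earlier results known.

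Of 20 tested genes of smooth muscle and pericytes, the cells of vessel walls, 13 fell and 2 rose, with a median of -2.51, or -2.21 with the genes at the limit set to their bounds. The median was -1.23 with a floor of 10 normalized reads. 12 of the falls and both rises were kept. Cspg4, the pericyte proteoglycan NG2, stood at 195 and 503 normalized reads in A and at 1.01 and 1 in C1, at least 115-fold lower. Abcc9, a channel regulator of pericytes, was at 60.5 and 66.7 and at 1 in both, at least 21.0-fold lower. Mcam, an adhesion molecule, fell by 5.82 and Notch3, the Notch receptor of mural cells, fell by 3.68. The rises were Mylk, myosin light chain kinase, which lay at -0.05 and -0.52 in A and at 4.93 and 5.37 in C1 (5.44, SE 0.39), and Myh11, smooth muscle myosin, at 1.41.

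Of 13 tested endothelial genes 7 fell and 0 rose, with a median of -3.30, or -2.90 with bounds. Without A replicate 1 11 fell, and when the 4 libraries were fitted alone 4 did. With a floor of 10 normalized reads the median was -1.14, and with a filter of 50 normalized reads it was -1.14 with 3 falls. Cdh5, the cadherin of endothelial junctions, was at 26.8 and 49.8 normalized reads in A and at 1.01 and 1 in C1, at least 12.7-fold lower. Pecam1, of the same junctions, was at 16.8 and 38.3 and at 1.01 and 1, at least 9.12-fold lower, and Tek, the angiopoietin receptor, at 58.7 and 45.6 and at 1 in both, at least 17.2-fold lower. The libraries did not overlap for any of these, but they were named for their gap, and A itself held few reads of them. Plvap, of endothelial diaphragms, fell by 5.13. Kdr, a VEGF receptor, was at 1 and 3.83 in A and at 1 in both C1 libraries, under the limits of both types.

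Notch signalling genes had 6 falls, all kept, and 1 rise among 15, or 2 rises without A replicate 2. Besides Heyl and Notch3, the receptor Notch4 fell by 5.12 and the target Hey1, at 15.1 and 72.4 normalized reads in A and at 1.01 and 1 in C1, was at least 14.5-fold lower. The rise was the coactivator Maml2 at 1.14, which missed the call without A replicate 2 (0.73) and without C1 replicate 1 (adjusted p = 0.0518). Of 7 tested genes of the angiotensin system 3 fell, among them the converting enzyme Ace at -4.68 and the peptidase Enpep, at 11.7 and 20.8 normalized reads in A and at 1 in both C1 libraries, at least 5.38-fold lower, and the receptor gene Agtr1a, at 47.1 and 8.21 and at 2.02 and 1, at least 9.14-fold lower. Besides Mme, described above, the precursor Agt lay at 0.04 and 0.14 in A and at 3.88 and 2.10 in C1 and rose by 2.90 (SE 0.55), a call lost when the 4 libraries were fitted alone, as was that of Mme.

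Genes of white blood cells were low in C1, while the A libraries disagreed on them. Of 34 tested macrophage and monocyte genes 9 fell and 0 rose, with a median of -2.11, or -2.30 with bounds, and for 32 of the 34 A replicate 2 had the higher value of the A libraries. The median of A replicate 2 minus A replicate 1 was 3.87 in this list. Over all tested genes the medians of the A libraries were 0 and 0.01, which is a different measure. On genes of known level the A shifts were -0.34 and 2.06. The share of all tested genes higher in A replicate 2 was not computed. The 14 members of known level summed to 47.8 and 751 normalized reads in A, to 21.1 and 17.7 in C1 and to 46980 and 45840 in B, where the floor alone gives 14. Csf1r, the receptor for the macrophage growth factor, lay at -1.43 and 2.92 in A and at 0.20 and 0.24 in C1. Its difference was -2.70 without A replicate 1 and 1.64 without A replicate 2, and both passed. Emr1, an adhesion receptor of macrophages, stood at 5.04 and 188 in A and at 3.02 and 2.67 in C1 (adjusted p = 0.0907, but 7.42e-05 without A replicate 1), and Tyrobp, an adaptor of myeloid receptors, at 3.36 and 109 and at 2.02 and 1 (adjusted p = 0.0785, but 0.00196 without A replicate 1).

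Among the members that fell, the scavenger receptor gene Msr1 was at 18.5 and 95.5 normalized reads in A and at 1.01 and 1.34 in C1, at least 18.9-fold lower, and this call was kept. C1qa, of complement C1q, lay at 2.33 and 6.78 in A and at 0.27 and -0.91 in C1 (-4.87, adjusted p = 0.0184). C1qa stood at -2.65 without A replicate 2, and its call was lost without C1 replicate 2 (adjusted p = 0.0967). Ms4a7, a membrane protein of macrophages, was at 5.04 and 84.9 and at 1 and 1.34, at least 14.9-fold lower, stood at -2.13 without A replicate 2 and lost its call without either C1 library (adjusted p = 0.0991 and 0.0789). The count of falls was 26 without A replicate 1, 6 without A replicate 2 (with 6 rises), 4 without C1 replicate 1, 1 without C1 replicate 2 and 1 when the 4 libraries were fitted alone. Of 22 genes shared by white blood cells 7 fell, against 19 without A replicate 1 and 6, with 3 rises, without A replicate 2. Of these 4 fell without C1 replicate 1, 3 without C1 replicate 2, 4 with a floor of 10 normalized reads and 1 when the 4 libraries were fitted alone.

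Other blood cell lists were small. H2-Ab1, an MHC class II chain, was at 43.4 and 199 normalized reads in A and at 1 in both C1 libraries, at least 40.0-fold lower, and of 9 class II genes 3 fell (5 without A replicate 1) and 1 rose (2 without A replicate 2). The other falls were H2-Eb1, at least 3.04-fold lower (fitted difference -2.84, and -1.78 without A replicate 2), and H2-DMb1 at -2.51. The rise was the invariant chain gene Cd74, at 1 and 1.92 normalized reads in A and at 11.1 and 6.68 in C1, at least 1.54-fold higher, which lost its call without A replicate 1 (2.16, adjusted p = 0.0908), C1 replicate 1 (adjusted p = 0.117) or C1 replicate 2 (adjusted p = 0.0595). Cd34, a marker of progenitors and stroma, fell by 4.75, and Lmo2, a factor of blood progenitors, at 13.3 and 86.1 normalized reads in A and 1.66 and 1 in C1, was at least 16.4-fold lower. With Ly6a, these were the 3 falls among 9 tested genes of blood progenitors, of which 0 rose, or 2 without A replicate 2. Lmo2 lost its call when the 4 libraries were fitted alone. Hdc, which makes histamine in mast cells, was at 18.5 and 205 in A and at 1 in both C1 libraries, at least 37.0-fold lower. The call of Hdc was lost when the 4 libraries were fitted alone (adjusted p = 0.0648) and with a floor of 10 normalized reads (adjusted p = 0.0597). The 5 mast cell genes listed at 0 in every library included Fcer1a and Tpsb2, and the mast cell proteases Cpa3, Mcpt4 and Cma1 were under the filter. Mlana, a melanocyte antigen, was at 1 and 1.92 in A and at 19.3 and 55.4 in C1, at least 6.49-fold higher, and Tyr, Dct and Tyrp1, the pigment enzymes, were listed at 0 in every library.

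**Figure D3:**
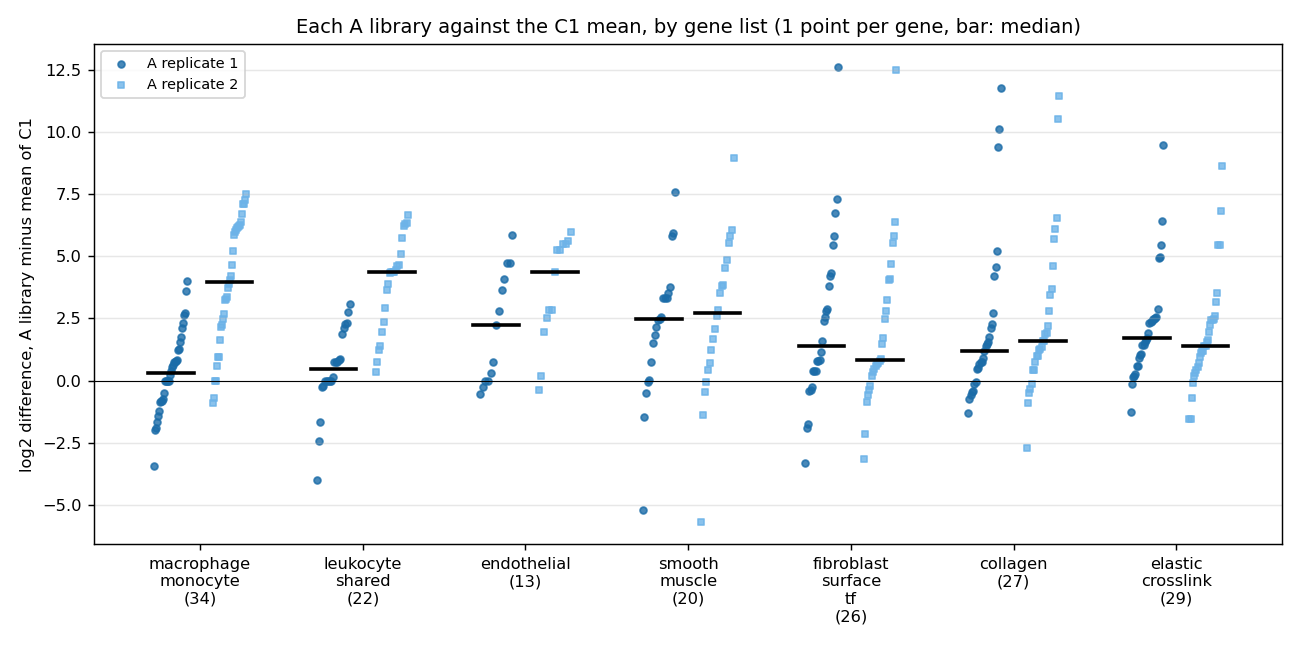
Log2 difference between each A library and the mean of the C1 libraries (y axis) for the tested members of 7 gene lists (x axis, number in brackets), 1 point per gene, circles for A replicate 1, squares for A replicate 2 and a bar at the median. Taken as C1 minus A, the medians of the macrophage list are far apart, at -0.30 for A replicate 1 and -3.96 for A replicate 2, and those of the collagen list are close, at -1.20 and -1.59.

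Mitosis genes fell in C1 almost without exception. All 27 tested members had lower values in both C1 libraries than in both A libraries, as did 5202 of all 14253 tested genes. Of the 27 members 26 passed as falls, all of these were kept, and the median was -2.29. When the 4 libraries were fitted alone 22 passed. Under the scaling on genes of known level 0 passed in either direction and the median was 0.0057, so that larger falls such as that of Plk1 lost their call as well. Their promoters are shown because the members moved together. The 200 bases before the start of transcription of 4 of the genes that fell follow, from RefSeq on GRCm38.p6, 5′ to 3′. Capitals mark the CCAAT box and the cell cycle element TTTGAA on either strand (ATTGG and TTCAAA in reverse), and none of the matches printed overlap.
Plk1: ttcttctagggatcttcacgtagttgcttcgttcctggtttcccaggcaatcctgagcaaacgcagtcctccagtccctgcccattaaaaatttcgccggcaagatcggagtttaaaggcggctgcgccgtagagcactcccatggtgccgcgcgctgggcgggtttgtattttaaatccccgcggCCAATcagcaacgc
Cdca8: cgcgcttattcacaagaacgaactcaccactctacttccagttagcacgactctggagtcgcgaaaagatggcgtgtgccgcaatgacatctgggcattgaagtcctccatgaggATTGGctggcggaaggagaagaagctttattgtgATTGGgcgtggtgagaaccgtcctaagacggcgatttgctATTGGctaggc
Cdc20: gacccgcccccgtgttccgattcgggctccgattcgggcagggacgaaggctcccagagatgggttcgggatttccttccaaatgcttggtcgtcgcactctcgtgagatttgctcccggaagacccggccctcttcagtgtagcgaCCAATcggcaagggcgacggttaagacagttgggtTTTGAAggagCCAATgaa
Ccnb2: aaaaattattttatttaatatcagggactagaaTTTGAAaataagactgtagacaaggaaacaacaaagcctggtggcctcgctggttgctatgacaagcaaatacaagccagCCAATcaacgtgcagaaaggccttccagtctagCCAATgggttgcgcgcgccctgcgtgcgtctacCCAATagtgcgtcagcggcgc
The stretches lie at chr7:122159235-122159434, plus strand for Plk1, at chr4:124936918-124937117, minus strand for Cdca8, at chr4:118437344-118437543, minus strand for Cdc20 and at chr9:70421555-70421754, minus strand for Ccnb2. A promoter was matched for 21 of the 26 genes that fell. CCAAT stood in 17 of these, 81.0%, against 30.1% of all 27025 RefSeq promoters of the same length, and TTTGAA in 7, 33.3%, against 12.8%. A match is a description of these letters and not a site of binding. The list was chosen by function, and only members that fell were searched. The shares therefore describe mitosis genes and not the difference between C1 and A.

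Plk1, the kinase that drives mitotic entry and spindle assembly, lay at 0.62 and 0.39 in A and at -2.61 and -3.58 in C1 (-3.60, SE 0.34, adjusted p = 0.000447). Cdca8, of the chromosomal passenger complex, lay at 0.47 and 0.41 and at -2.44 and -3.14, and fell by 3.23. Cdc20, which activates the anaphase-promoting complex, fell by 3.35, the cyclin gene Ccna2 fell by 3.27, the cyclin gene Ccnb2 fell by 2.88, the kinesin Kif2c fell by 2.97 and the centromeric histone Cenpa fell by 2.90. The exception was the kinase gene Cdk1, which lay at 0.12 and -0.20 in A and at -0.63 and -1.25 in C1. Its difference of -0.90 (adjusted p = 0.023) missed the size threshold, and it was -1.06 without A replicate 2 and -1.21 without C1 replicate 1, both called. Of 29 genes of DNA replication 13 fell and 0 rose, with a median of -0.88, and all 29 differences were negative. Over all 14253 tested genes 7351 differences were negative. E2f2, a factor of the S phase, fell by 3.26, the licensing gene Cdc6 fell by 2.59 and the helicase subunit Mcm5 fell by 2.33. Uhrf1, which maintains DNA methylation at replication, fell by 2.63 (SE 0.30). Cdkn1c, an imprinted inhibitor of cyclin-dependent kinases, was also lower, at 15.9 and 7.66 normalized reads in A and at 1 in both C1 libraries, at least 3.90-fold.

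Of 28 tested genes of glycolysis and hypoxia 19 fell and 0 rose in C1, with a median of -1.53 and all 19 calls kept. Slc16a3, which exports lactate, lay at 0.53 and 0.94 in A and at -8.02 and -6.36 in C1 and fell by 7.93 (SE 0.49, adjusted p = 9.54e-05). The glycolytic aldolase Aldoc fell by 4.83 (SE 0.62), the oxygen sensor Egln3 fell by 4.26, the hypoxia target Ankrd37 fell by 3.65, the peptide hormone Adm fell by 3.19 and the glucose transporter Slc2a1, from -0.02 and 0.45 in A to -2.57 and -2.74 in C1, fell by 2.87. The promoters of a gene with the core of the hypoxia response element, ACGTG on either strand (CACGT in reverse, shown in capitals), and of one without it follow in the same format.
Slc2a1: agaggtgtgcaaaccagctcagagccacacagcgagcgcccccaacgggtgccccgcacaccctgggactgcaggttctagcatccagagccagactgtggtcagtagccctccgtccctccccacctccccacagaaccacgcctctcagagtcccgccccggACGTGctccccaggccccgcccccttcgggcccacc
Aldoc: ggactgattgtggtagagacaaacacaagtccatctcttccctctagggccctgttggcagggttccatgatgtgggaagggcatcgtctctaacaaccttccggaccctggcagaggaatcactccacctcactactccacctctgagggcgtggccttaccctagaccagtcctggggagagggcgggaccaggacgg
They lie at chr4:119108545-119108744, plus strand for Slc2a1 and at chr11:78322873-78323072, plus strand for Aldoc. The core stood in 7 of the 18 matched promoters of genes that fell, 38.9%, against 13.9% of all RefSeq promoters. For comparison, it stood in 4 of the 21 promoters of the mitosis genes, while CCAAT stood in 5 of these 18, 27.8%. These shares likewise describe a list chosen by function and not the difference between C1 and A.

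Of 30 tested nuclear genes of the respiratory chain 1 rose and 0 fell, with a median of 0.38, and 1 fell without C1 replicate 1. The rise was Ndufa4, a subunit of the chain, which lay at -0.78 and -0.97 in A and at 0.66 and 0.70 in C1 (1.56, SE 0.15, adjusted p = 0.000523). Its relative Ndufa4l2, described above, moved the other way. Of 31 tested lysosomal genes 13 rose and 0 fell, and 10 of these calls were kept. The median was 0.83, or 0.51 without A replicate 1 and 1.27 without A replicate 2. Hexa, of the hexosaminidase that degrades gangliosides, lay at -0.64 and 0.11 in A and at 1.80 and 1.86 in C1 and rose by 2.09 (SE 0.23). Asah1, acid ceramidase, rose by 1.60 and the mannosidase Man2b1 by 1.50. Without A replicate 1 10 rose and 3 fell, and 6 rose when the 4 libraries were fitted alone. For 29 of the 31 members A replicate 2, the library with the higher macrophage sum, had the higher value of the A libraries, and its part in the counts was not tested. The median of A replicate 2 minus A replicate 1 was 0.65 in this list. The A library medians of 0 and 0.01 over all tested genes are a different measure. The share of all tested genes higher in A replicate 2 was not computed.

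Genes of cholesterol synthesis and efflux had 10 falls and 0 rises among 25, a median of -0.88 and 4 kept calls. The count was 4 falls and 1 rise without C1 replicate 1, and 13 falls and 2 rises without A replicate 2, and 3 fell when the 4 libraries were fitted alone. The median was -0.55 without A replicate 1, -1.38 without A replicate 2 and -1.40 without C1 replicate 2. Among 28 antioxidant genes 3 rose, 10.7%, and 4 fell, 14.3%, near the 10.1% and 16.6% of all tested genes. The secreted peroxidase Gpx3 rose by 3.47 (SE 0.16), Aldh1a1, an aldehyde dehydrogenase that can also make retinoic acid, by 3.01 and the mitochondrial superoxide dismutase Sod2 by 1.32, or by less than the threshold without A replicate 1 (0.95). The falls were the glutathione transferase Gsta4 at -4.03, the quinone reductase Nqo1 at -2.60 (-1.62 without A replicate 2), Gpx7 at -2.13 and Gclm, of glutathione synthesis, at -1.68. Without A replicate 2 5 rose and 7 fell, and 2 fell when the 4 libraries were fitted alone.

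**Figure D4:**
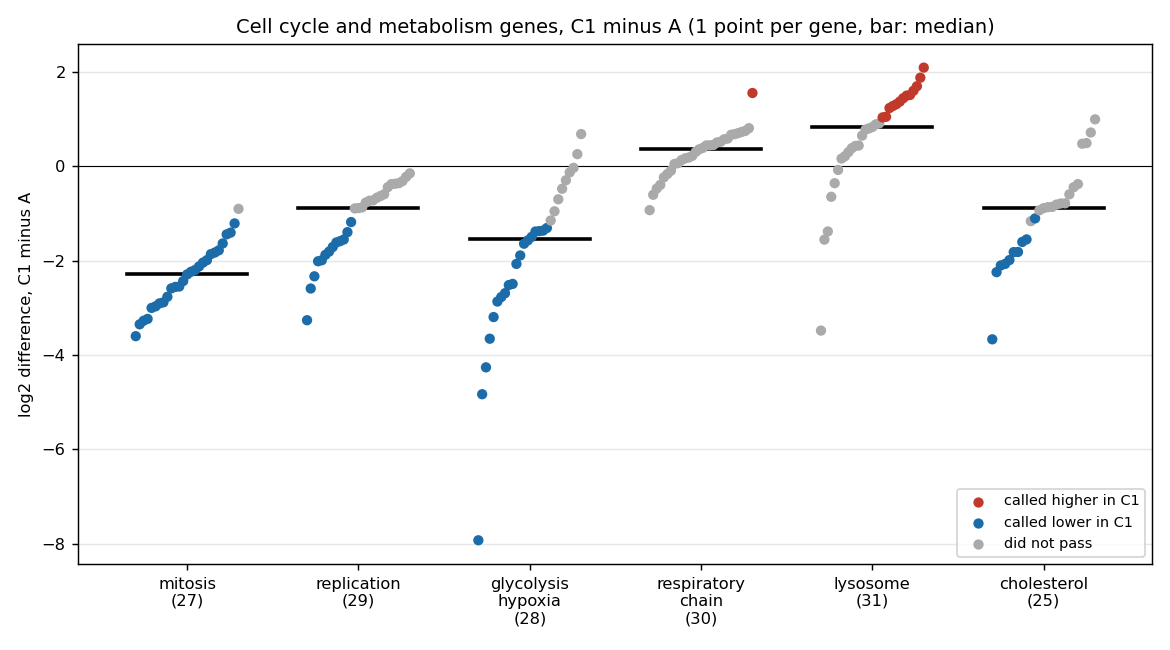
Log2 difference, C1 minus A (y axis), of the tested members of 6 gene lists (x axis, number in brackets), 1 point per gene, sorted within the list, red for called higher, blue for called lower, grey for not passed, with a bar at the median. Mitosis and glycolysis genes lie mostly below 0, with medians of -2.29 and -1.53, and lysosomal genes mostly above it, with a median of 0.83.

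Epicardial and mesothelial genes split into those that rose and those that fell, with 6 rises and 4 falls among 15 tested, all of them kept. Bnc1, a transcription factor of the mesothelium, lay at -4.64 and -4.59 in A and at 0.04 and -0.04 in C1 and rose by 4.62 (SE 0.19, adjusted p = 2.35e-05). Msln, mesothelin, rose by 4.89 (SE 0.44), the uroplakins Upk1b by 4.81 and Upk3b by 4.22, the membrane protein Gpm6a by 4.21 and Lrrn4 by 3.83. Aldh1a2, the retinoic acid enzyme of the embryonic epicardium, moved the other way, from 8.90 and 6.66 in A to 0.22 and -2.25 in C1 (-8.79, SE 1.05). Krt19, a keratin, fell by 3.90 (-2.41 without A replicate 2), Cldn15, a claudin, fell by 2.34 and Tbx18, an epicardial transcription factor, fell by 2.25. Wt1, the defining factor of the epicardium, lay at 0.68 and -2.89 in A and at -1.30 and -0.68 in C1, and the groups overlapped. The Wt1 difference was 0.11 (adjusted p = 0.943), called higher without A replicate 1 (1.90) and lower without A replicate 2 (-1.67). Among 7 tested epithelial genes Krt19 was the 1 that changed, and its call was lost when the 4 libraries were fitted alone (adjusted p = 0.0995), as was that of Cldn15. Of the other epithelial genes Cldn3 was called lower without A replicate 1, Krt18 higher without A replicate 2 and under quantile normalization and Cdh1 higher without C1 replicate 2.

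Of 15 tested transcription factors of the heart 7 fell and 1 rose in C1. Mef2c, a factor of heart and vessel development, fell by 6.98 (SE 0.40), from 2.13 and 1.61 in A to -5.61 and -4.62 in C1. Tbx2 fell by 5.15. Tbx5, of the heart chambers and forelimb, stood at 25.2 and 48.4 normalized reads in A and at 3.02 and 5.34 in C1 and fell by 3.12. Irx3 rose by 2.36, a call lost without C1 replicate 1 (2.27, adjusted p = 0.0578). Of 10 tested genes of cardiac muscle 3 fell and 1 rose, led by Tnni3, cardiac troponin I, at -3.68. Mybpc3, a myosin-binding protein, was at least 3.13-fold lower (fitted difference -2.71, and -1.72 without A replicate 1), the myosin light chain gene Myl4 fell by 1.28, and Ttn, titin, rose by 2.05. When the 4 libraries were fitted alone 1 of these muscle genes fell and 0 rose, and the call of Ttn was lost. Tnnt2, cardiac troponin T, was called higher without A replicate 2. Myl4 lost its call without either A library (adjusted p = 0.104 and 0.118) or C1 replicate 2 (-0.59) and stood at -1.97 without C1 replicate 1. Myh6 and Myh7, the cardiac myosin heavy chains, were listed at 0 in every library.

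Among 20 tested HOX genes, which set position along the body axis, 5 fell and 3 rose. Hoxc6 was at 1 in both A libraries and at 23.4 and 17.0 normalized reads in C1, at least 3.52-fold higher, and Hoxb4 rose by 3.03 (SE 0.17), from -1.84 and -1.54 to 1.47 and 1.21. Hoxb3 rose by 1.11, but by less than the threshold without A replicate 1 (0.74), and its adjusted p was 0.0526 without C1 replicate 2. Hoxa3 was at 13.4 and 5.75 in A and at 1 in both C1 libraries, at least 3.17-fold lower, and Hoxd8 at 13.4 and 7.66 and at 1 and 2.00, at least 3.49-fold lower. The other 3, Hoxa2, Hoxb6 and Hoxd4, had means under the limits in both types, so no fold is given, and Hoxb6 lost its call without A replicate 1 (-0.94), C1 replicate 1 (adjusted p = 0.112) or C1 replicate 2 (adjusted p = 0.116). With a floor of 10 normalized reads 0 HOX genes fell, and 3 fell when the 4 libraries were fitted alone.

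Pax3, a factor of muscle and neural crest precursors, lay at -3.63 and -4.22 in A and at 1.58 and 1.92 in C1 and rose by 5.68 (SE 1.19, adjusted p = 0.00887). The other rises among 8 tested myogenic genes were Six4 at 1.50, lost without C1 replicate 1 (1.05, adjusted p = 0.0816), and Eya4 at 1.38, both partners in the same regulatory network. The 3 falls were Mef2c, Six2, at 131 and 44.1 normalized reads in A and at 1 in both C1 libraries (at least 29.0-fold lower), and Des, desmin, at 10.1 and 28.7 and at 1 in both (at least 6.42-fold lower). Of 11 tested genes of neural crest and Schwann cells 7 fell (4 with a floor of 10 or a filter of 50 normalized reads) and 1 rose. Nes, nestin, fell by 8.98 (SE 0.75). L1cam, an adhesion protein of axons, was at 43.6 and 110.5 normalized reads in A and at 1.01 and 1 in C1, at least 25.5-fold lower, Gap43, of growing axons, at least 9.05-fold lower, and Ngfr, the low-affinity neurotrophin receptor, at least 4.64-fold lower. Mbp, myelin basic protein, rose by 3.08, lost its call without C1 replicate 1 (adjusted p = 0.0606) or C1 replicate 2 (adjusted p = 0.0844), and stood at 1.67 without A replicate 1.

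Bone and cartilage genes had 5 falls and 1 rise among 9 tested (0 rises with the 4 libraries alone). Alpl, the alkaline phosphatase of bone, was at 162 and 163 normalized reads in A and at 1 and 2.00 in C1, at least 53.8-fold lower, and Sox6, a cartilage factor, at 26.9 and 21.3 and at 1 in both, at least 7.98-fold lower. The other falls were Sox9, the mineralization inhibitor Mgp at -1.48 and Col2a1, of cartilage collagen, at -3.99, and the rise was Sox5 at 1.16. Col2a1 lost its call without A replicate 2 (-2.28, adjusted p = 0.0568) or C1 replicate 1 (adjusted p = 0.129), and Sox5 without A replicate 2 (0.80) or C1 replicate 2 (0.82). Fat cell genes had 5 falls and 2 rises among 12, or 3 falls and 1 rise with the 4 libraries alone. Fabp4, a fatty acid carrier, fell by 3.31 and Cebpa, a factor of fat cells and macrophages, fell by 2.66, while Pparg, the master regulator of fat cell formation, rose by 2.19 (SE 0.20), from -2.16 and -2.22 in A to -0.16 and 0.16 in C1. The other falls were the lipid enzyme genes Dgat2 at -2.31 and Scd1 at -1.49 and the factor Cebpd at -1.90, and the other rise was Lpl, lipoprotein lipase, at 1.10. Scd1 lost its call without A replicate 1 (-0.84) or C1 replicate 1 (-1.04, adjusted p = 0.172), and Lpl without A replicate 2 (0.88), C1 replicate 1 (0.96) or C1 replicate 2 (adjusted p = 0.0773).

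**Figure D5:**
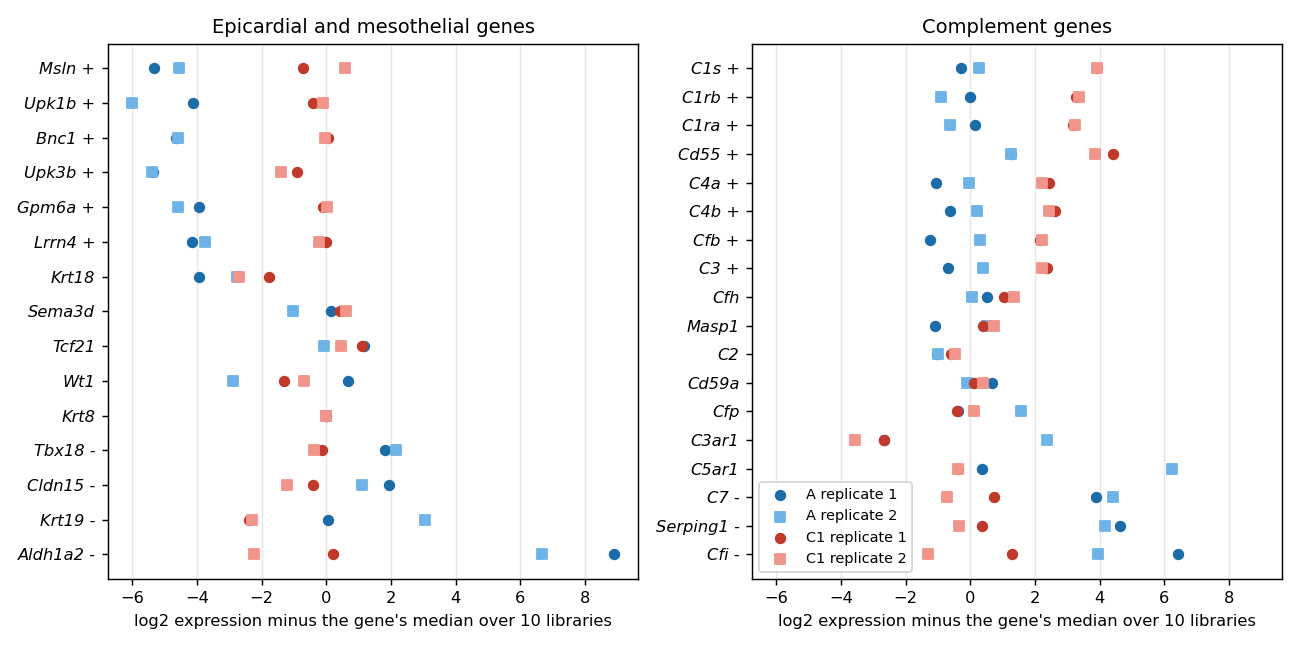
Log2 expression minus the gene's median over 10 libraries (x axis) for the tested epicardial and mesothelial genes (left, 15) and complement genes (right, 18), 1 point per library (blue, A; red, C1; circles, replicate 1; squares, replicate 2), with + for called higher and - for called lower in C1. The 6 mesothelial and 8 complement genes marked + have both C1 points to the right of both A points, and Wt1 has its C1 points between its A points.

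Wnt pathway genes changed in both directions, with 12 falls and 6 rises among 31 tested. Frzb, a secreted Wnt antagonist, was at 7837 and 3785 normalized reads in A and at 124 and 136 in C1 and fell by 5.39 (SE 0.35, adjusted p = 0.000118). Dkk2, another antagonist, fell by 7.67. The ligand Wnt11 was at 89.1 and 65.1 in A and at 1 in both C1 libraries, at least 25.5-fold lower, and the receptor Lgr6 at 47.5 and 63.6 and at 1.01 and 1, at least 18.4-fold lower. The ligand Wnt16 went the other way, at 1 in both A libraries and at 26.2 and 15.1 in C1, at least 3.59-fold higher.

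TGF-beta and BMP genes had 15 falls and 3 rises among 34 tested, of which 11 falls and 0 rises were kept, and 9 fell and 0 rose when the 4 libraries were fitted alone. Fst, which binds activin, fell by 4.64 (SE 0.41) and Acvrl1, a receptor of the pathway, fell by 3.62. The rises were the BMP antagonists Grem1 at 3.87 and Nbl1 at 1.13 and the ligand Bmp4 at 2.97, and each lost its call without C1 replicate 1, at adjusted p of 0.0539, 0.0789 and 0.141. Bmp4 also lost it without C1 replicate 2 (adjusted p = 0.130) and stood at 4.76 without A replicate 1 and 1.19 without A replicate 2, while Grem1 stood at 2.43 and Nbl1 at 0.81 without A replicate 1. Of 16 retinoic acid genes 8 fell (5 with the 4 libraries alone) and 1, Aldh1a1, rose, with a median of -2.53, or -1.54 with a floor of 10 normalized reads. The carrier Rbp4 fell by 4.91, and the receptor Rarb fell by 3.72. Rarres2, the chemoattractant chemerin, was at 74.8 and 176 normalized reads in A and at 2.58 and 4.12 in C1 and fell by 5.14.

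The IGF axis, which carries insulin-like growth factor signals, had 5 rises (3 with the 4 libraries alone) and 4 falls among 17 tested. The 3 RNA-binding proteins Igf2bp1, Igf2bp3 and Igf2bp2, expressed in the embryo, rose by 3.48, 2.44 and 1.82, and these calls were kept. Igf2, the fetal growth factor, lay at -4.77 and -0.21 in A and at 2.79 and 2.26 in C1 (5.02, SE 1.27, adjusted p = 0.0176). It stood at 2.74 without A replicate 1 and lost its call without C1 replicate 1 (adjusted p = 0.0809) or C1 replicate 2 (adjusted p = 0.0632). Igfbp4, a binding protein, rose by 2.07 and lost its call without A replicate 1 (1.27, adjusted p = 0.0698), C1 replicate 1 (adjusted p = 0.119) or C1 replicate 2 (adjusted p = 0.0508). Pappa, a protease that frees IGF from its binding proteins, fell by 6.54 (SE 0.52). Igfbp5 was at 31.9 and 780 normalized reads in A and at 1.01 and 1 in C1, at least 134-fold lower, with a fitted difference of -7.30 that was -4.99 without A replicate 2. The other falls were the binding proteins Igfbp6 at -2.76 and Igfbp7 at -1.46.

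Imprinted genes, which are expressed from 1 parental copy, held 6 rises (3 without either C1 library, and 3 with the 4 libraries alone) and 5 falls among 25 tested. The falls were H19, Dio3, Plagl1, Cdkn1c and Grb10, all kept. H19, a long RNA of the Igf2 locus, lay at 1.36 and 0.85 in A and at -3.65 and -3.25 in C1 and fell by 4.55 (SE 0.22), while its neighbour Igf2 was higher in C1 as described. Dlk1, a membrane ligand of fetal tissue, rose by 3.58 (SE 0.36), and Dio3, which inactivates thyroid hormone and lies in the same cluster, was at 60.5 and 47.9 normalized reads in A and at 1 in both C1 libraries, at least 17.9-fold lower. In the Peg3 domain Peg3 rose by 3.08 and Usp29, at 1 and 3.83 normalized reads in A and at 13.1 and 10.0 in C1, was at least 2.01-fold higher, with a fitted difference of 2.55. The latter stood at 1.58 without A replicate 1 and lost its call without C1 replicate 1 (adjusted p = 0.0837) or C1 replicate 2 (adjusted p = 0.0578).

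Growth factors and their receptors had 12 falls and 4 rises among 34 tested, 7 falls and 2 rises kept. Fgf7, a growth factor for epithelia, fell by 3.39, Pdgfd fell by 2.90, and the receptor Ntrk3, at 16.8 and 23.6 normalized reads in A and 1.01 and 1.34 in C1, was at least 6.68-fold lower. Met, the receptor for hepatocyte growth factor, rose by 2.60 (SE 0.20), from -2.38 and -2.82 to -0.17 and 0.17, and Figf, which encodes VEGF-D, by 2.30. Tgfa rose by 2.11 and lost its call without A replicate 1 (1.54, adjusted p = 0.0607), C1 replicate 1 (adjusted p = 0.0757) or C1 replicate 2 (adjusted p = 0.0607), and Pdgfc rose by 1.35, or 0.94 without A replicate 1. Without A replicate 1 2 of these genes rose, as when the 4 libraries were fitted alone, and without A replicate 2 7. Among 19 Hippo pathway targets and effectors 7 fell, including Ctgf and Tead2 (-2.41), and 2 rose, the coagulation factor gene F3 at 3.77 (SE 0.36) and Tead4 at 1.92. Tead4 lost its call without A replicate 1, C1 replicate 1 or C1 replicate 2 (adjusted p = 0.137, 0.0709 and 0.159).

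Immediate early genes, which cells switch on within minutes of a stimulus, had 13 falls and 0 rises among 22, a median of -1.77 and 12 kept calls, and 8 fell when the 4 libraries were fitted alone. Fosb, of the AP-1 factor, lay at 1.87 and 2.08 in A and at -1.96 and -3.17 in C1 and fell by 4.54 (SE 0.41), and of the other transcription factors Nr4a3 fell by 3.83, Egr3 fell by 3.05 and Nr4a2 fell by 2.92. Axon guidance genes had 13 falls and 8 rises among 37, with 4 rises without C1 replicate 1, 4 without C1 replicate 2 and 1 when the 4 libraries were fitted alone. Ephb2, an ephrin receptor, fell by 8.28 (SE 0.54), Sema7a, a membrane semaphorin, fell by 6.63 and the repellent Slit2 fell by 4.44, and its receptor gene Robo2, at 81.5 and 24.4 normalized reads in A and at 1 in both C1 libraries, was at least 17.5-fold lower.

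Of 18 tested complement genes 8 rose and 3 fell, all kept, with a median of 0.89. The subunits of the C1 protease, which starts the classical pathway, were among the rises. The genes of complement C1q, C1qa among them, were counted in the macrophage list and not here. They were called lower, though these calls were not kept. C1s lay at -0.28 and 0.28 in A and at 3.92 and 3.90 in C1 and rose by 3.91 (SE 0.24, adjusted p = 8.83e-05), and C1rb and C1ra rose by 3.76 and 3.45. C1ra and C1rb, like C4a and C4b, are near-identical copies whose reads the counting could split, so each value is uncertain. C4a rose by 2.87, C4b by 2.73, the central component C3 by 2.44, Cfb, of the alternative pathway, by 2.67 and the inhibitor Cd55 by 2.88. Serping1, the C1 inhibitor, moved against the proteases, from 4.64 and 4.15 in A to 0.36 and -0.36 in C1 (-4.39, SE 0.27). C7, of the membrane attack complex, was at 24.5 and 35.4 normalized reads in A and at 2.75 and 1 in C1, at least 9.92-fold lower, and Cfi, the protease that inactivates C3 fragments, fell by 5.19. Without A replicate 1 6 complement genes fell.

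Chemokines changed in both directions, with 5 rises (1 with the 4 libraries alone) and 5 falls among 22 tested. Cxcl14 was at 2470 and 498 normalized reads in A and at 7.05 and 8.68 in C1 and fell by 7.15 (SE 0.69). Pf4, a chemokine of platelets and macrophages, was at 20.2 and 76.6 and at 1 and 1.34, at least 16.0-fold lower, Cxcl5 fell by 4.16, Ccl9 fell by 4.14 and Cx3cl1, a membrane-bound chemokine, fell by 1.44. Cx3cl1 lost its call without A replicate 1 (-0.75), C1 replicate 1 (adjusted p = 0.0762) or C1 replicate 2 (adjusted p = 0.166). Cxcl12, which retains stem cells in the marrow, lay at 0.12 and -0.12 in A and at 2.07 and 2.01 in C1 and rose by 2.04. Ccl11, which attracts eosinophils, was at 5.04 and 3.83 normalized reads in A and at 37.3 and 16.0 in C1, at least 4.64-fold higher, and Cxcl15 was at 1 in both A libraries and at 7.17 and 3.34 in C1, too low for a fold. Ccl8 rose by 4.16 and Ccl7 by 1.20. Ccl8 lost its call without A replicate 1 (1.91, adjusted p = 0.0563), C1 replicate 1 (adjusted p = 0.175) or C1 replicate 2 (adjusted p = 0.0738) and stood at 6.42 without A replicate 2, and Ccl7 lost it without A replicate 2 (adjusted p = 0.0720) or C1 replicate 1 (0.87). Without A replicate 1 9 chemokines fell, and without C1 replicate 1 3 rose.

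Cytokines and colony-stimulating factors had 8 falls (4 with the 4 libraries alone) and 1 rise among 18. Il34, a ligand of Csf1r, was at 94.9 and 146 normalized reads in A and at 1 in both C1 libraries, at least 39.8-fold lower, and Tnfsf11, the osteoclast factor RANKL, at 43.5 and 32.6 and at 1.01 and 1, at least 12.6-fold lower. Il6 fell by 4.08 (SE 0.31) and Tslp fell by 3.52, and Tnfsf13b, the B cell factor BAFF, rose by 1.87. Interferon-stimulated genes had 9 falls and 0 rises among 32 with a median of -0.44, 5 falls kept, among them the GTPase Gbp3 at -2.17. In the fit without A replicate 1 8 of them fell and 2 rose with a median of -0.06, without C1 replicate 1 1 rose, without C1 replicate 2 the median was -0.75, and 3 fell when the 4 libraries were fitted alone. Of 11 genes of MHC class I and peptide loading 3 rose and 0 fell, with a median of 1.01 and 7 rises under quantile normalization. B2m, the light chain of class I, lay at -1.36 and -1.21 in A and at 0.20 and 0.58 in C1 and rose by 1.67 (SE 0.18, adjusted p = 0.000766), Erap1, which trims peptides, rose by 1.41 and the heavy chain gene H2-D1 by 1.02. H2-D1 lost its call without A replicate 1 (0.59), C1 replicate 1 (adjusted p = 0.0660) or C1 replicate 2 (0.93), and its reads may be shared with other class I genes.

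Remaining lists described regulators and rare cells. Among 25 cell cycle inhibitors and p53 targets 8 fell and 3 rose, of which 1 fall and 1 rise were kept, and 3 fell without C1 replicate 1, 4 without C1 replicate 2, and 5 with 0 rises when the 4 libraries were fitted alone. The falls were 32% of the list and the rises 12%, with a median of -0.81. Among the falls were inhibitors of cyclin-dependent kinases, such as Cdkn1c described above, and p53 targets. The rises were Gadd45a, a stress gene, at 1.71, the cell death gene Pmaip1 at 2.34 and Cdkn1b, another such inhibitor, at 1.04. Cdkn1b was under the threshold without A replicate 2 (0.74), and Pmaip1 lost its call without A replicate 1 (1.52, adjusted p = 0.0886), C1 replicate 1 (adjusted p = 0.0532) or C1 replicate 2 (adjusted p = 0.126). Of 23 chromatin writers and readers 7 fell and 2 rose. The falls held DNA methylation genes, such as Uhrf1 described above, and also Polycomb genes. The rises were the Polycomb genes Bmi1 at 1.30 and Cbx7 at 1.24, so Polycomb genes moved both ways. Of 17 pluripotency genes 5 were tested, and the 1 that changed was Klf4 at -1.20. Klf2 and Myc were also called lower without C1 replicate 1 and Tbx3 without A replicate 1, while Pou5f1, the defining factor of pluripotent cells, was listed at 0 in every library. Of 15 lymphocyte genes 3 were tested, and the 1 that changed was the kinase gene Lck at 1.18, which lost its call without A replicate 2 (0.81), without C1 replicate 2 (adjusted p = 0.0898) and when the 4 libraries were fitted alone.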

How the data were processed

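RNA-seq libraries of 5 cell types, 2 per type, were deposited as 1 table of 36172 genes, and per the labels' protocols they were made from total RNA with the Illumina TruSeq RNA kit v2. This kit does not mark strand, which is background and not stated there. The submitters' processing notes name TopHat, DESeq and the mm10 build, with no versions. The values the authors deposited are log2 expression values. In the file, each gene's median over the 10 libraries was 0 for all 17821 genes with values, within 1e-05, and 18334 genes were 0 everywhere. 17 genes with a value that could not be read as a number were left out. The centring removes a gene's level, so levels and depth were rebuilt from the values. Where at least 2 libraries shared the lowest value, that value was taken as a floor of 1 normalized read, which is an inference and not stated by the sources. Low values were then multiples of 1 read, but only 32.9% to 70.5% came out whole within 0.01, so no count test was run and absolute depth is unknown. Size factors were 0.595 and 0.522 for A and 0.992 and 1.50 for C1.

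Genes of known level under 10 normalized reads in all but 1 library were left out (3568), which left 14253, of which 14131 matched RefSeq genes of GRCm38.p6. The log2 values of the 10 libraries were modelled together with limma 3.58.1 in R 4.3.3 (5 residual df, prior df 1.93), and a call needed a Benjamini-Hochberg adjusted p under 0.05 and a log2 difference of at least 1. The script was tested on simulated data. Alternatives were the 4 libraries alone, other scalings, filters and floors, a robust spread, the replicate block and each C1 or A library left out. Scaling on the median of all tested genes was chosen after seeing the data. The comparison and the gene lists were chosen with earlier results of these data known. Named genes were the sort and sex chromosome genes, the 12 widest gaps each way, up to 6 called members per list by gap, and genes whose call rests on 1 A library. Some genes that this rule names are not reported here. Further members of small counts, and Col1a1, Myh11 and Ccnb2, were named after their values were seen. Promoter stretches are from RefSeq, with 27025 promoters searched, and a gene without an entry was passed over.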

Additional observations from a re-analysis of the deposited data

How the results depend on the processing

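Fitted on the 4 libraries alone, 2375 genes were called, 857 higher and 1518 lower in C1, and the list members called higher were 61, against 114. Quantile normalization called 2217 genes higher. Scaling on the genes of known level, whose C1 medians were the floor, called 9397 genes, 9061 higher and 336 lower. List members were 411 higher and 88 lower against 371, because this scaling raises every difference by 2.30. Under it 20 named falls changed sign, to log2 differences of Col1a1 0.60, Gbp3 0.12, Tbx18 0.048, Sh2b3 1.08, Socs1 0.62, Snai1 0.38, Tcf4 1.21, Mgp 0.82, Gclm 0.61, Gpx7 0.17, Igfbp7 0.83, Cebpd 0.39, Scd1 0.81, Myl4 1.02, Hoxa2 0.68, Hoxb6 0.95, Hoxd4 0.45, Cx3cl1 0.85, Klf4 1.10 and Plagl1 0.35. With 1 library left out, the calls ran from 3103 to 4238, those higher from 1096 to 1729 and those lower from 2007 to 2732, and list members from 90 to 151 higher and 325 to 431 lower.

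Of the 273 named genes 63 lost their call under the scaling on genes of known level beside the 20 that changed sign, 61 when the 4 libraries were fitted alone, 17 without A replicate 1, 9 without A replicate 2, 29 without C1 replicate 1, 25 without C1 replicate 2, 23 with a floor of 10 normalized reads, 6 under quantile normalization and 3 under the replicate block. Whether replicate numbers pair the samples is not known. Deviations from the type means of A and C1 correlated at -0.04 over genes, which cannot exclude a pairing. The replicate block called 1410 genes higher and 2349 lower. In 346 of the genes called lower C1 was at or under its limit of 3 reads, so depth allows only a bound on their size.

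The calls lost under the scaling on genes of known level were those of Acvrl1, Adam12, Adm, Agtr1a, Ankrd37, C7, Ccl9, Ccna2, Ccnb2, Cdc20, Cdc6, Cdca8, Cdh11, Cdkn1c, Cebpa, Cenpa, Cldn15, Col2a1, Col3a1, Ctgf, Cxcl5, Des, Dgat2, E2f2, Egr3, Enpep, Fabp4, Fbn1, Fgf7, Foxc2, Gsta4, H2-DMb1, H2-Eb1, Hoxa3, Hoxd8, Igfbp6, Il6, Kif2c, Krt19, Mcm5, Ms4a7, Mybpc3, Ngfr, Notch3, Nqo1, Nr4a2, Nr4a3, Ntrk3, Pdgfd, Pdgfra, Plk1, Prrx2, Ptpn6, Rarb, Serpinf1, Slc2a1, Sox9, Tbx5, Tead2, Tnni3, Tslp, Uhrf1 and Vcan. The calls lost when the 4 libraries were fitted alone were those of Agt, Agtr1a, Bmp4, C1qa, Ccl11, Ccl7, Ccl8, Cdh3, Cdkn1b, Cebpd, Cfb, Cfi, Cldn15, Col2a1, Ctsk, Cx3cl1, Cxcl15, Ddx3y, Foxf1, Foxf2, Gadd45a, Grem1, Gsta4, H2-D1, H2-Eb1, Hdc, Hoxa2, Hoxb3, Hoxb6, Igf2, Igfbp4, Igfbp5, Itga3, Krt19, Lck, Lmo2, Lpl, Maml2, Mbp, Mme, Mmp13, Ms4a7, Mybpc3, Myl4, Nbl1, Nqo1, Pdgfc, Plagl1, Pmaip1, Ptpn6, Ptprc, Scd1, Six4, Sod2, Sox5, Tcf4, Tead4, Tgfa, Tnxb, Ttn and Usp29.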
